A study of Mus musculus with 5 samples.

Results

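The HoxA and HoxB gene clusters were described by the methylation of every CpG that 5 enhanced reduced representation bisulfite sequencing (ERRBS) libraries covered in 2 windows of the mouse genome (mm9), chr6:52100000-52220000 for HoxA and chr11:96045000-96235000 for HoxB. With both strands of a CpG merged, the windows held 1861 CpGs covered in at least 1 library, of 1170580 on the autosomes of the whole series. Of the 1861, 1650 were covered in all 5 libraries, 874 in HoxA and 776 in HoxB, and the other 211 were not used for levels or tests. The 1650 are 0.160% of the 1029299 autosomal CpGs covered in all 5 libraries. The libraries came from mouse bone marrow sorted for LSK cells (Lin- Sca1+ cKit+), a fraction with the stem cells of the blood and its earliest progenitors. All animals were C57BL/6; 3 libraries were wild type, and 2 carried a germ-line targeted allele, called targeted here because their titles read KO while their genotype label reads +/-. No age is given for them. Nothing in the labels says that each library is a separate animal, so a p-value here weighs a difference only against the spread from library to library, part of which may be technical. The assay measures DNA, so the LSK label could not be checked against expressed markers.

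Hox genes encode homeodomain transcription factors that set positional identity along the body axis, and their order along a cluster follows the order of the body regions they pattern. In blood, Hoxa7, Hoxa9 and Hoxa10 are genes of stem and progenitor cells that are shut off as cells mature, Hoxb4 is known for expanding stem cells when overexpressed, and the Kmt2a (Mll) and Polycomb complexes keep the clusters on or off. The CpG islands that make up much of a Hox cluster are largely free of methylation in most tissues, and in human leukaemias methylation of HOXA5 is known to go with low expression.

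ERRBS reads the CpGs near cuts of MspI, which cuts at CCGG, so it sees only a share of each promoter. Of 20 Hox genes, 12 had a promoter sequence in RefSeq (250 bases before to 50 after a start, GRCm38.p6), and 4 could be placed on mm9 because the spacing of their CpGs matched covered positions at a single place: Hoxa5, Hoxa6, Hoxa11 and Hoxa13. The other 16 are located below only by their RefSeq order between placed starts. Their promoters were either missing from the sequence table (Hoxa4, Hoxb2, Hoxb3, Hoxb5, Hoxb6, Hoxb7, Hoxb9 and Hoxb13) or could not be matched (Hoxa2, Hoxa3, Hoxa7, Hoxa9, Hoxa10, Hoxb1, Hoxb4 and Hoxb8). The transcripts Hoxb3os and Gm51876, which RefSeq lists inside HoxB, were placed in the same way and are shown because they carry the contrast within that cluster: the printed set holds the methylated starts, Hoxa5 and Gm51876, beside unmethylated ones. The sequences are printed 5′ to 3′ on the minus strand, with the CpGs covered in all 5 libraries in capitals; positions are mm9.
Hoxa5 (chr6:52154537-52154836): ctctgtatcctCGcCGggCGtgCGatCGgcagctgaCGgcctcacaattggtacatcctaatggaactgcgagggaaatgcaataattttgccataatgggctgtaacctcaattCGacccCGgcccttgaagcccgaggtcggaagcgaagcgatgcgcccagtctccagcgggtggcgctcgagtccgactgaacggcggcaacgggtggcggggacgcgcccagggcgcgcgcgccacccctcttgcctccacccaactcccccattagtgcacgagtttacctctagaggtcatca
Hoxa6 (chr6:52158622-52158921): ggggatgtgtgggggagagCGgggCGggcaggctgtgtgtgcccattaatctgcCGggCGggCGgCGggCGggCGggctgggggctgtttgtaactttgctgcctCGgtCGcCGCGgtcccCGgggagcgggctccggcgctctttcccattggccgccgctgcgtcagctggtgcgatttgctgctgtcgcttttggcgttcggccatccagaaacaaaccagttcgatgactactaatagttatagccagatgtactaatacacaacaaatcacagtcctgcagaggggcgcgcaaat
Hoxa11 (chr6:52195760-52196059): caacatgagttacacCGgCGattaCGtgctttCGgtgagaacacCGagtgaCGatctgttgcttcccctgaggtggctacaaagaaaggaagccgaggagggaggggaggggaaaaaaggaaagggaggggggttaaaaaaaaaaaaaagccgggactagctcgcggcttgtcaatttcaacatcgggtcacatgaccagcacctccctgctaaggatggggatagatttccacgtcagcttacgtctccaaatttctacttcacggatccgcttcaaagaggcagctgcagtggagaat
Hoxa13 (chr6:52210825-52211124): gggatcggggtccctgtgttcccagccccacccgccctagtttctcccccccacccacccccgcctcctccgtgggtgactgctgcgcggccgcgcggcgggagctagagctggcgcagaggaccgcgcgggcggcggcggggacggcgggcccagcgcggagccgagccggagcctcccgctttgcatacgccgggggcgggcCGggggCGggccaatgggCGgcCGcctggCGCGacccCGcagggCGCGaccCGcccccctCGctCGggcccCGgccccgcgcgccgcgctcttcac
Hoxb3os (chr11:96214659-96214958): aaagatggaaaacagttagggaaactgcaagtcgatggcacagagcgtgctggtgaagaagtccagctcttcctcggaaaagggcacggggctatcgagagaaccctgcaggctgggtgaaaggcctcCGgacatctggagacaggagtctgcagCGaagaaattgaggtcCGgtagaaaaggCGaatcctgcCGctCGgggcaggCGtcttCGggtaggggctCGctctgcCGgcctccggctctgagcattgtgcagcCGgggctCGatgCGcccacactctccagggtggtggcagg
Gm51876 (chr11:96130316-96130615): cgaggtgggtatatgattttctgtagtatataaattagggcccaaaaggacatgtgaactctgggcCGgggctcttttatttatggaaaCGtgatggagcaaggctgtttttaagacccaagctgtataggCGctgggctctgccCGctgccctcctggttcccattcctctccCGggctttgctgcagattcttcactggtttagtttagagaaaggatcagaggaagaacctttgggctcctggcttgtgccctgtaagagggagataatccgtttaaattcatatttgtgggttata
The motif CCGG, which reads the same on both strands, stands 2 times in the Hoxa5, Hoxa11 and Gm51876 sequences, 3 times in Hoxa6, 4 times in Hoxa13 and 5 times in Hoxb3os. Of 32851 RefSeq promoters of the same length, 52.8% hold it at least once, as do 10 of the 13 promoters of the listed Hox genes.

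Targeted library 1 stood apart from the other libraries outside the clusters. At partly methylated autosomal CpGs outside both windows (20% to 80% in the mean of the 5 libraries) it stood at 58.3%, while targeted library 2 stood at 52.5% and wild type at 51.4% to 52.1%. Over all autosomal CpGs outside both windows it also had the lowest median coverage, 88 reads a CpG against 104 to 113. Its mean over those under 20% was the highest, 1.22% against 0.936% to 1.001%. The part of these library-wide values in the results was not tested. Values are therefore given for each library, in the order of their numbers, and the cluster differences also without targeted library 1.

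The 4 placed Hox promoters fell into a methylated one and 3 unmethylated ones. At Hoxa5, a regulator of blood progenitor and lung development, 8 of 29 CpGs were covered, between 128 and 238 bases before the start. Their mean methylation was 78.3% and 65.5% in the targeted libraries against 56.8%, 67.4% and 57.8% in wild type, on 614 to 815 reads a library. Targeted library 1 was the highest, and targeted library 2 lay below wild-type library 2, so the groups overlapped. At Hoxa6, the next gene, the 13 covered CpGs were between 0.328% and 0.905% methylated in all 5 libraries, on 1557 to 2259 reads. Hoxa11, which acts in limb, kidney and uterus development, was between 1.51% and 2.68% methylated over 6 CpGs, and Hoxa13, which patterns the digits and the urogenital tract, between 0.0620% and 0.310% over 13 CpGs. In HoxB the outermost Gm30134 start was between 1.78% and 2.96% methylated over 10 CpGs, and the Hoxb3os start between 0.157% and 0.697% methylated over 13 CpGs. The start of Hoxa11os, an antisense transcript inside Hoxa11, was 1.37% methylated in targeted library 1 and between 0.408% and 0.566% in the other libraries over 36 CpGs. Gm51876 differed from these: its 5 covered CpGs were 72.2% and 67.1% methylated in the targeted libraries against 63.2%, 68.4% and 67.3% in wild type. The groups overlapped at each of these starts. Hotairm1, Hottip, Mir196b, Mir10a and Mir196a-1, the noncoding genes of the clusters, could not be placed.

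Across the Hoxa6 start the covered CpGs changed from partly methylated to largely unmethylated. Between the Hoxa5 and Hoxa6 starts 25 CpGs averaged 57.1% and 48.2% in the targeted libraries against 41.0%, 49.1% and 39.7% in wild type. The groups overlapped there (exact permutation test over libraries, two-sided, p = 0.3). Of these CpGs, 20 were between 20% and 80% methylated in the mean of all libraries and 4 were under 20%. Both genes lie on the minus strand, so the side of lower coordinates is the transcribed side. In the first 1000 bases after the Hoxa5 start, 52 covered CpGs, between 287 and 740 bases in, were 60.2% and 47.7% methylated in the targeted libraries against 30.8%, 42.0% and 31.8% in wild type. Here the groups did not overlap, and wild-type library 2 was the highest of its group. In the first 1000 bases after the Hoxa6 start, 13 covered CpGs, between 191 and 433 bases in, were 40.1% and 31.3% methylated in the targeted libraries against 27.2%, 31.1% and 26.9% in wild type. On the other side of the same start the nearest covered CpG, 128 bases away, was the first of the unmethylated promoter CpGs. The Hoxa5 value therefore depends on the window: over 1000 bases on either side of its start the mean of all libraries was 46.5%, against 65.2% for the promoter, and for Hoxa6 it was 14.2%, against 0.60%.

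**Figure D1:**
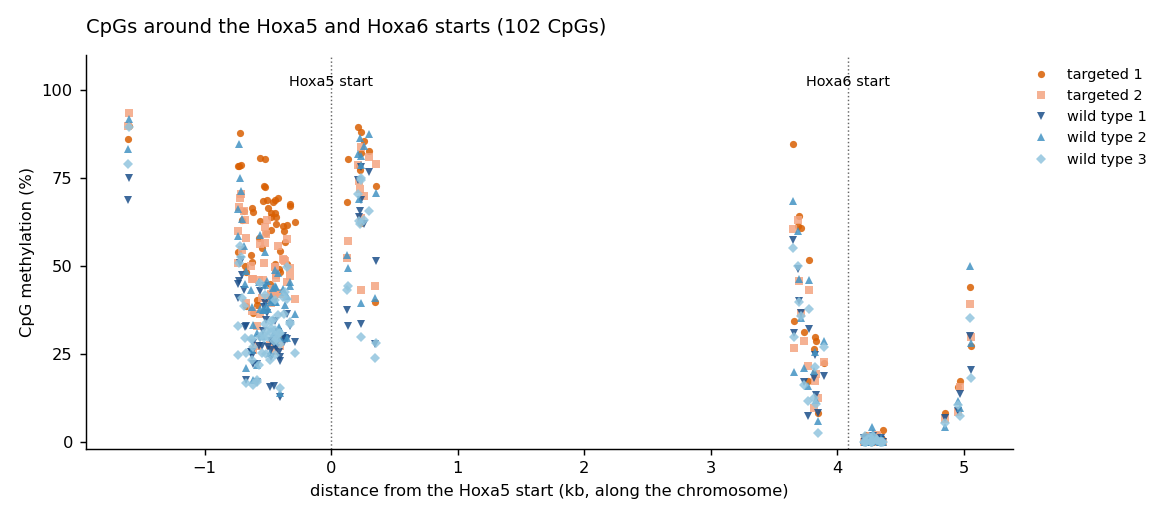
CpG methylation (%) in each of the 5 libraries at 102 CpGs around the Hoxa5 and Hoxa6 starts, against the distance from the Hoxa5 start in kb; each symbol is 1 CpG in 1 library and the dotted lines mark the starts. The CpGs next to Hoxa5 spread over the middle of the scale with targeted library 1 on top, and the promoter CpGs of Hoxa6 lie near 0 in all libraries.

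Along HoxA the placed starts separate a methylated from an unmethylated side. RefSeq orders the genes as Hoxa2, Hoxa3, Hoxa4, Hoxa5, Hoxa6, Hoxa7, Hoxa9, Hoxa10, Hoxa11 and Hoxa13, with the outermost Hoxa3 transcript reaching past Hoxa6. From the start of the window to the Hoxa5 start, the stretch with Hoxa2, Hoxa4 and part of Hoxa3, 348 CpGs had a mean of 42.7% and 36.7% in the targeted libraries against 31.6%, 35.4% and 31.7% in wild type. Of these CpGs, 43.4% were under 20% methylated in the mean of all libraries. The groups did not overlap, and the targeted mean was 6.75 points higher (exact permutation test over libraries, two-sided, p = 0.1, the smallest p that 2 against 3 libraries allow).

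From the Hoxa6 to the Hoxa11 start, the stretch of Hoxa7, Hoxa9, Mir196b and Hoxa10, 345 CpGs averaged between 1.10% and 1.82% in the 5 libraries, and 98.3% of them were under 20%. The longest run of CpGs under 20% in HoxA lay here, at chr6:52161714-52190738, with 267 neighbouring covered CpGs and means between 0.370% and 0.599%. The group means of this run differed by 0.105 points and the groups overlapped. From Hoxa11 to Hoxa13 139 CpGs averaged between 2.39% and 3.33%, and beyond Hoxa13 17 CpGs averaged between 1.68% and 3.33%.

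HoxA held 5 methylated blocks, defined as at least 5 neighbouring covered CpGs of at least 50% each in the mean of all libraries, with 99 CpGs in all. The 3 with the highest levels lay before Hoxa5 on the chromosome. The block at chr6:52118714-52125476 (28 CpGs) was 94.7% and 89.1% methylated in the targeted libraries against 84.4%, 87.9% and 84.4% in wild type, with no overlap of the groups. The block at chr6:52126621-52140634 (41 CpGs) ranged from 77.7% to 87.1% and the block at chr6:52149920-52152991 (18 CpGs) from 90.0% to 94.6%, and both overlapped. The remaining blocks flank the Hoxa5 start. The block at chr6:52153852-52153894 (6 CpGs), on the transcribed side, was 75.4% and 64.4% methylated in the targeted libraries against 47.3%, 69.3% and 45.2% in wild type. Its values split into a high set of targeted libraries and wild-type library 2 and a low set of the other wild-type libraries. The block at chr6:52154714-52154818 (6 CpGs) lies within the Hoxa5 promoter and overlapped likewise.

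HoxB was arranged differently, with methylated stretches on both sides of unmethylated islands. RefSeq orders the genes as Hoxb13, Hoxb9, Hoxb8, Hoxb7, Hoxb6, Hoxb5, Hoxb4, Hoxb3, Hoxb2 and Hoxb1, with Gm30134 and Gm51876 between Hoxb13 and Hoxb9 and the Hoxb3os start inside Hoxb2. Up to the Gm30134 start, the side of Hoxb13, 60 CpGs averaged 5.68% and 4.49% in the targeted libraries against 4.34%, 4.07% and 4.49% in wild type. Between the Gm30134 and Gm51876 starts, the long interval that separates Hoxb13 from the rest, 88 CpGs averaged 39.3% and 33.6% in the targeted libraries against 32.3%, 32.7% and 32.9% in wild type. Targeted library 1 stood well above the rest and targeted library 2 only just above the wild-type libraries.

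Between the Gm51876 and Hoxb3os starts, the stretch of Hoxb9 to Hoxb3, 578 CpGs averaged between 18.95% and 21.3% in the 5 libraries. Of these 76.3% were under 20%, including the longest unmethylated run of HoxB, 103 CpGs at chr11:96138746-96148707 with means between 1.61% and 2.22%. Towards its end lay 3 methylated blocks, of 32 CpGs at chr11:96181838-96201330 (83.2% to 86.1%), 33 CpGs at chr11:96203233-96206004 (83.6% to 92.9%) and 41 CpGs at chr11:96206978-96207509. The block of 41 CpGs was 89.0% and 85.9% methylated in the targeted libraries against 78.2%, 84.3% and 78.0% in wild type, with no overlap. A run of 14 CpGs under 20%, at chr11:96202144-96202283 (1.12% to 6.48%), separated the blocks of 32 and 33 CpGs. After the block of 41 CpGs, a run of 67 CpGs under 20% at chr11:96213340-96215977 (1.82% to 3.25%) reached across the Hoxb3os start. In all HoxB held 8 methylated blocks with 141 CpGs, and the other 5 had 5 to 9 CpGs each. Those at chr11:96087360-96095249 (86.4% to 90.4%), chr11:96121859-96121938 (55.3% to 71.2%) and chr11:96130440-96130549, within the Gm51876 promoter, overlapped between the groups. The block at chr11:96125548-96126231, also before Gm51876, was 74.0% and 63.2% methylated in the targeted libraries against 62.0%, 60.1% and 56.2% in wild type, with no overlap. The block at chr11:96150855-96152518, among the unmethylated CpGs of the Hoxb9 to Hoxb3 stretch, was 80.5% and 81.3% methylated against 69.5%, 77.2% and 74.4%, again with no overlap. The groups thus did not overlap, with the targeted libraries higher, in 1 of the 5 HoxA blocks and 3 of the 8 HoxB blocks. Among all autosomal tiles of 1000 bp that share was 17.1%. No such share was computed for blocks elsewhere, so these counts are a description. Beyond the Hoxb3os start, on the side of Hoxb1, 50 CpGs averaged 24.2% and 19.1% in the targeted libraries against 16.9%, 14.5% and 16.8% in wild type, a difference of 5.63 points with no overlap (exact permutation test, two-sided, p = 0.1).

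**Figure D2:**
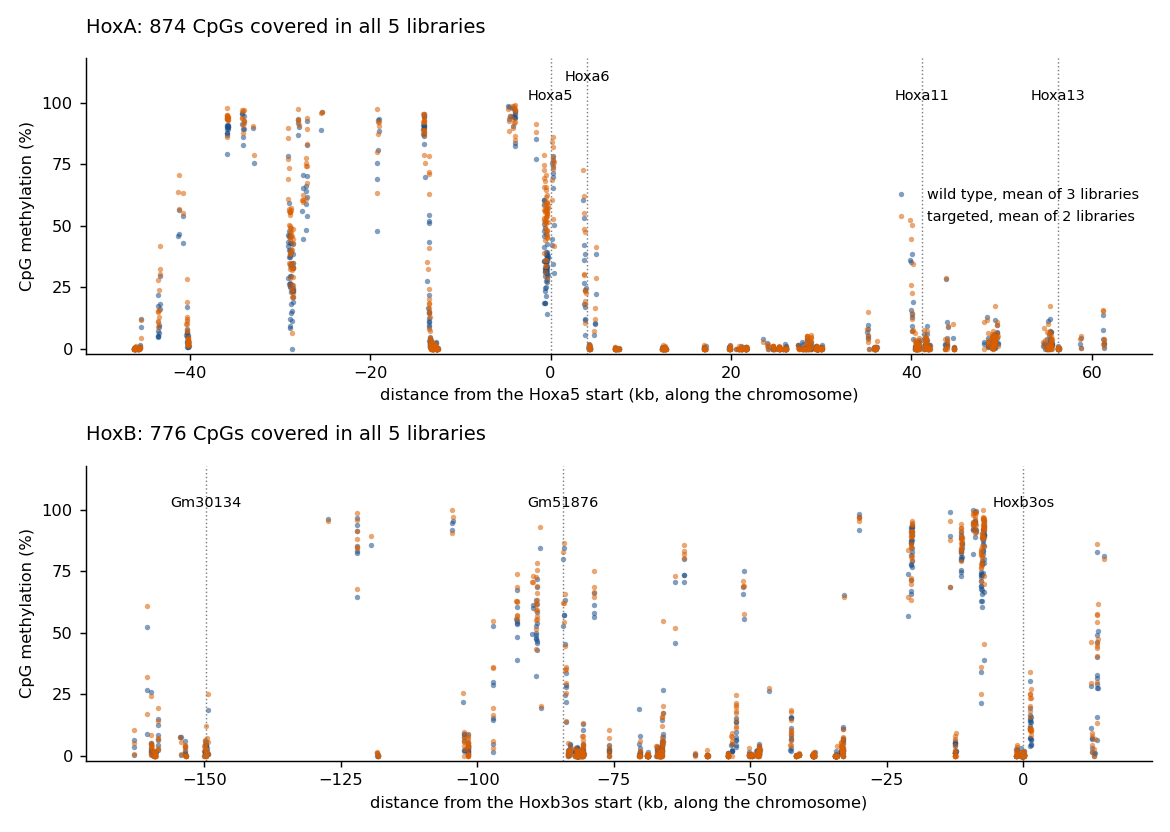
Methylation (%) of each CpG covered in all 5 libraries, as the mean of the 3 wild-type and of the 2 targeted libraries, along HoxA (distance in kb from the Hoxa5 start) and HoxB (distance in kb from the Hoxb3os start); dotted lines mark placed starts. In HoxA the methylated CpGs lie before the Hoxa6 start and few lie beyond it, while in HoxB methylated and unmethylated groups of CpGs alternate.

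**Figure D3:**
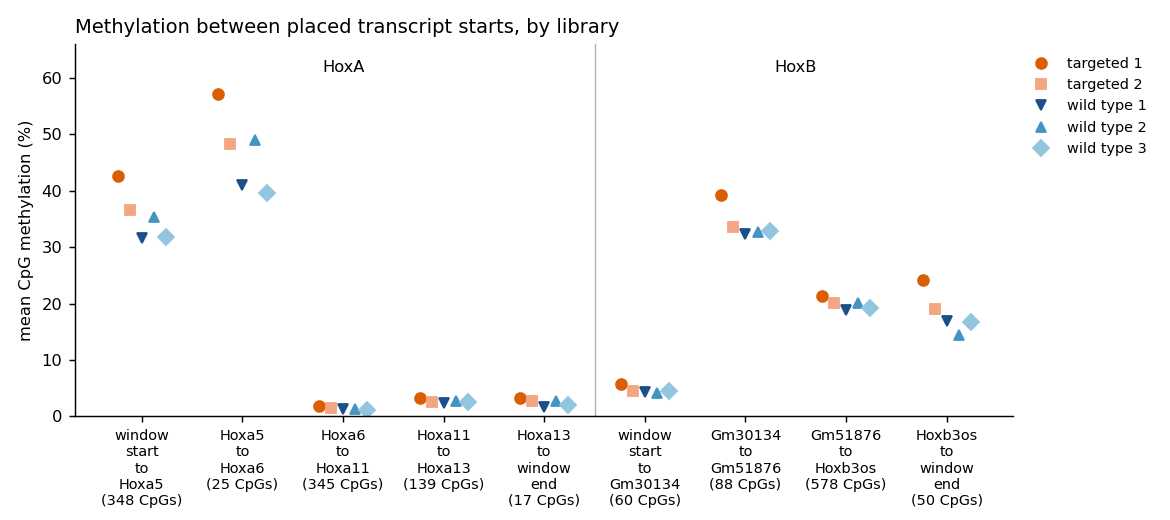
Mean CpG methylation (%) in each library between neighbouring placed starts, with the number of CpGs in brackets; each symbol is 1 library. The stretches before Hoxa6 range from 31.6% to 57.1% and the HoxA stretches after it from 1.10% to 3.33%. Targeted library 1 is the highest in each stretch of both clusters.

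As a whole, both clusters were less methylated than the rest of the measured genome and HoxA less than HoxB. The mean over all CpGs was 19.9% and 17.1% in the targeted libraries against 14.7%, 16.5% and 14.7% in wild type for HoxA, and 22.3% and 20.4% against 19.2%, 19.9% and 19.5% for HoxB. Over the 1027649 other autosomal CpGs it was between 34.2% and 35.1%. HoxA lay below HoxB in 5 of 5 libraries, by 3.71 ± 0.979 points (SD, n = 5; exact sign-flip permutation test, two-sided, p = 0.063, the smallest p that 5 libraries allow). HoxA lay 17.9 points and HoxB 14.2 points below the other CpGs, again in 5 of 5 libraries with p = 0.063 each by the same exact test. The size of these gaps depends on what is averaged. With 1000 bp tiles in place of CpGs they were 43.4 and 37.5 points, since CpG-dense tiles make up fewer of the tiles than of the CpGs. With CpGs weighted by their reads HoxA was only 1.67 points below HoxB. The direction of the gap to the other CpGs depended on CpG density. In tiles with 1 to 4 covered CpGs the mean of all libraries was 34.1% in HoxA and 53.5% in HoxB, against 81.1% among the others. In tiles with at least 30 the clusters were the higher, at 13.1% and 14.9% against 1.77%, but few tiles made these levels. In HoxB it was mainly the tile at chr11:96207001-96208000 (82.1%), with the other dense tiles between 0.339% and 3.55%. In HoxA it was mainly the tiles at chr6:52125001-52126000 (38.8%) and chr6:52154001-52155000 (43.2%). At densities between these the order varied.

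The share of partly methylated CpGs in dense stretches depended on the density taken. In tiles of 1000 bp with at least 30 covered CpGs, 25.7% of the 374 HoxA CpGs (8 tiles) were between 20% and 80% methylated in the mean of all libraries, against 5.75% of the 226 HoxB CpGs (5 tiles) and 1.22% of the other autosomal CpGs. In tiles with 20 to 29 covered CpGs the order was another one: 0.488% in HoxA, 6.67% in HoxB and 3.01% among the others. Among the 8 dense HoxA tiles, those at chr6:52125001-52126000 (41 CpGs) and chr6:52154001-52155000 (48 CpGs), described below, had the highest levels, at 38.8% and 43.2%. The tile at chr6:52158001-52159000 stood at 12.5% and the rest between 0.164% and 3.13%. The HoxA share thus came from few tiles and does not describe its dense stretches in general. Mean methylation in tiles of at least 30 CpGs was 18.0% and 13.8% in the targeted libraries against 10.5%, 12.5% and 10.5% in wild type for HoxA. In HoxB it was 16.2% and 15.3% against 13.8%, 15.1% and 14.3%, and among the other autosomal CpGs between 1.69% and 1.94%. Neighbouring CpGs share reads and source, so these shares are a description without a test.

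The question the libraries address is whether the targeted allele changes methylation in LSK cells. No covered stretch was lost in the targeted libraries: 859 HoxA and 647 HoxB positions had 50 reads or more in each wild-type library, and 0 of them were missing from both targeted libraries.

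Both clusters had higher mean methylation in the targeted libraries. For HoxA the means were 18.5 ± 2.03% (SD, n = 2) and 15.3 ± 1.03% (SD, n = 3), a difference of 3.22 points with no overlap (exact permutation test, two-sided, p = 0.1, the smallest possible). Leaving out targeted library 1 brought it to 1.78 points and leaving out targeted library 2 to 4.65 points. For HoxB the means were 21.4 ± 1.37% and 19.6 ± 0.371% (same n), a difference of 1.80 points without overlap (exact permutation test, two-sided, p = 0.1), and of 0.837 points without targeted library 1 or 2.77 points without targeted library 2. Over the other autosomal CpGs the targeted libraries were 0.546 points higher. The excess of the cluster over the other CpGs, tested itself over libraries, was 2.67 points for HoxA (exact permutation test, two-sided, p = 0.2) and 1.26 points for HoxB (p = 0.1 by the same exact test), neither of which reaches 0.05 in a design that cannot go below 0.1.

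In points, the group difference per CpG was largest at partly methylated CpGs in HoxA, in HoxB and among the other autosomal CpGs. The classes were cut on the mean of the same libraries. CpGs near either end of the percent scale have little room to differ, so the scale largely sets this order. The 154 HoxA CpGs between 20% and 80% were 58.8% and 46.9% methylated in the targeted libraries against 36.4%, 43.6% and 36.0% in wild type. The group means differed by 14.2 points, against a wild-type SD of 4.32 points, and by 8.24 points with targeted library 2 alone. The 106 HoxB CpGs of this kind were 64.9% and 56.2% methylated against 51.7%, 54.4% and 52.4%, a difference of 7.70 points, or of 3.36 points with targeted library 2 alone. The 68416 other autosomal CpGs of this kind differed by 3.57 points, or by 0.686 points with targeted library 2 alone. The excess of HoxA over the other CpGs was 10.6 points and that of HoxB 4.12 points (exact permutation test over libraries, two-sided, p = 0.2 each). CpGs under 20% differed by 0.676 points in HoxA (649 CpGs), 0.513 points in HoxB (576 CpGs) and 0.157 points among the others. CpGs over 80% differed by 2.60 points in HoxA (71 CpGs, groups overlapping), 3.08 points in HoxB (94 CpGs, no overlap) and 0.661 points among the others.

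Averaged over the partly methylated CpGs, the wild-type libraries had an SD of 4.32 points in HoxA, 1.41 points in HoxB and 0.404 points elsewhere, while tile by tile the spread in HoxB was no smaller, as given below. At the partly methylated CpGs of HoxA wild-type library 2 stood 7.47 points above the mean of the other wild-type libraries, against 2.36 points in HoxB and -0.699 points at the other autosomal CpGs. It was the highest wild-type library at 103 of the 154 HoxA CpGs (66.9%), at 46 of the 106 HoxB CpGs (43.4%) and at 30.4% of the others. Targeted library 1 was the highest of all at 120 of the HoxA CpGs (77.9%), at 68 of the HoxB CpGs (64.2%) and at 46.8% of the others. All wild-type libraries were below both targeted ones at 82 of the 154 HoxA CpGs (53.2%) and at 26 of the 106 HoxB CpGs (24.5%), where the share among all 68676 autosomal CpGs of this kind was 19.4%. The HoxB share is near that background. Neighbouring CpGs share reads and source, so these counts of CpGs are a description without a test. Targeted library 2 stood 3.26 points above wild-type library 2 in HoxA, 1.79 points in HoxB and 1.15 points at the other CpGs.

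**Figure D4:**
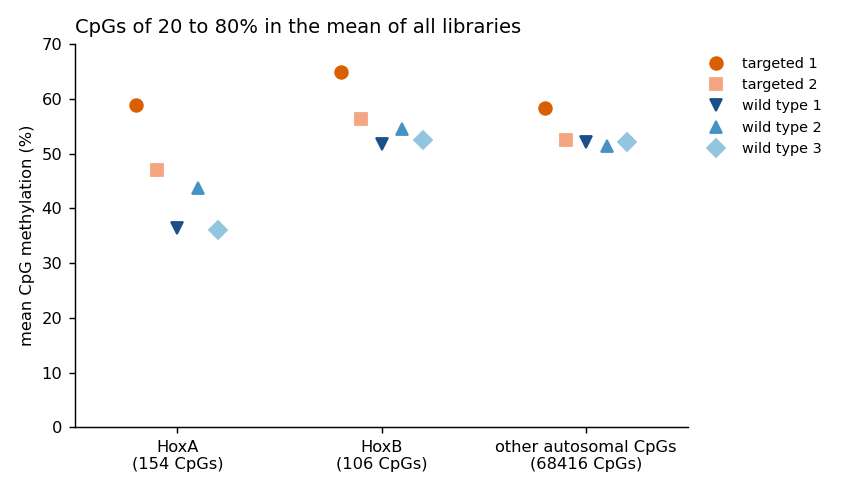
Mean methylation (%) in each library over CpGs between 20% and 80% in the mean of all 5 libraries, in HoxA, in HoxB and on the other autosomal CpGs; each symbol is 1 library. The libraries spread from 36.0% to 58.8% in HoxA, with wild-type library 2 between the other wild-type libraries and the targeted ones, and from 51.4% to 58.3% outside the clusters.

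In tests of single regions across the whole genome no Hox tile or CpG passed. Methylated and unmethylated reads of tiles of 1000 bp with at least 3 CpGs were compared with edgeR (its quasi-likelihood test, p-values adjusted after Benjamini and Hochberg), and a tile counted as called where adjusted p was under 0.05 and the groups differed by 10 points or more. Of 102 Hox tiles, 47 in HoxA and 55 in HoxB, 0 were called, against a background of 15 of 90338 autosomal tiles (0.0166%), and the lowest adjusted p among the Hox tiles by this edgeR test was 0.789. Limma called 0 as well. Of 1371 Hox CpGs tested singly, 0 were called with at least 25 points, by edgeR or limma, against 67 of 756725 (0.00885%).

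Below that threshold the Hox tiles leaned towards higher methylation. At an unadjusted edgeR p under 0.05, 11 of 47 HoxA tiles (23.4%) and 5 of 55 HoxB tiles (9.09%) were higher in the targeted libraries, where 5.35% of all tiles were. Lower tiles at the same limit numbered 1 in HoxA and 0 in HoxB, against 0.974% of all tiles. By limma 9 of the 102 tiles had an unadjusted p under 0.05, against 17 by edgeR, and without targeted library 1 edgeR gave 2, while without targeted library 2 it gave 29 and without wild-type library 1 it gave 11. Among single CpGs, 65 of 696 in HoxA (9.34%) and 22 of 675 in HoxB (3.26%) were higher at an unadjusted p under 0.05, where 2.29% of all were. Lower CpGs numbered 7 in HoxA and 4 in HoxB, against 0.679% of all. Over both clusters and directions this came to 98 CpGs by edgeR and 91 by limma, and by edgeR to 28 without targeted library 1, 193 without targeted library 2, 40 without wild-type library 1 and 46 without wild-type library 3.

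The median difference over the 102 Hox tiles was 0.638 points, against 0.286 points over all tiles. Groups that did not overlap with the targeted libraries higher were found in 15 HoxA and 13 HoxB tiles, where the background was 17.1%; with the targeted libraries lower they were found in 2 and 2 tiles, where it was 5.21%. The targeted mean was higher by at least 10 points in 6 of 47 HoxA tiles and 1 of 55 HoxB tiles, where the share among all tiles was 0.987%, and lower by that much in none of the 102.

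The 3 HoxA tiles with the largest differences all lay before or across the Hoxa5 start. The tile at chr6:52154001-52155000 holds the start itself and 48 covered CpGs, and 61.7% and 46.8% of its reads were methylated in the targeted libraries against 31.1%, 41.2% and 35.2% in wild type. The values rest on 7196 to 10237 CpG reads a library, in which a read counts once at each CpG it covers, and the wild-type SD was 5.07 points. The groups did not overlap, and the difference was 18.4 points (edgeR, unadjusted p = 0.00775, adjusted p = 0.789). The neighbouring tile at chr6:52153001-52154000, in the transcribed side of Hoxa5, stood at 55.5% and 45.5% in the targeted libraries against 29.6%, 39.9% and 28.6% in wild type over 16 CpGs. Its difference was 17.8 points without overlap (edgeR, unadjusted p = 0.00347, adjusted p = 0.789), and wild-type library 2 was again the highest of its group. The tile at chr6:52125001-52126000, with 41 CpGs in the stretch of Hoxa2 to Hoxa4, stood at 53.7% and 38.7% against 32.3%, 35.0% and 34.2%. Here the wild-type SD was 1.37 points, the groups did not overlap and the difference was 12.4 points.

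In HoxB the 3 largest tile differences lay outside the Hoxb9 to Hoxb3 stretch. The tile at chr11:96124001-96125000, in the interval before Gm51876, stood at 82.3% and 60.3% in the targeted libraries against 59.5%, 62.6% and 52.4% in wild type over 3 CpGs, a difference of 13.1 points in which targeted library 1 alone stood above wild type. Its neighbour at chr11:96125001-96126000 (15 CpGs) stood at 67.5% and 53.3% against 47.2%, 52.8% and 53.0%, without overlap, though targeted library 2 was only just the higher. The tile at chr11:96228001-96229000, beyond Hoxb3os on the side of Hoxb1, stood at 57.0% and 49.3% against 48.6%, 39.3% and 44.3% over 12 CpGs, a difference of 9.12 points without overlap. The next largest difference was close to this one and lay inside the Hoxb9 to Hoxb3 stretch, at chr11:96162001-96163000 (9 CpGs). That tile stood at 23.4% and 13.8% against 9.97%, 10.6% and 8.32%. Its difference was 8.95 points without overlap (edgeR, unadjusted p = 0.00502, adjusted p = 0.789).

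The tiles with the largest spread among wild-type libraries partly coincided with these. In HoxA they were chr6:52153001-52154000 (SD 6.26 points), chr6:52135001-52136000, where wild-type library 3 stood at 77.4% and the other 4 libraries between 87.5% and 90.4%, and chr6:52113001-52114000, where the wild-type libraries stood at 42.9%, 54.5% and 48.4%. In HoxB the largest was chr11:96163001-96164000, with 57.7%, 78.6% and 63.2% in the wild-type libraries over 4 CpGs and 175 to 299 CpG reads. Wild-type library 2 exceeded both targeted libraries there, at 70.8% and 64.2%. The tiles at chr11:96206001-96207000 (SD 5.77 points) and chr11:96203001-96204000 (SD 5.31 points) lie in and next to the methylated blocks before Hoxb3os. Across the 8 HoxA tiles between 20% and 80%, the median wild-type SD was 4.43 points, against 4.97 points over the 8 HoxB tiles and 3.15 points over the 12027 autosomal tiles of this kind. Wild-type library 2 was the highest of its group in 7 of the 8 HoxA tiles, in 4 of the 8 HoxB tiles and in 26.2% of the autosomal tiles.

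Among genes that act on Hox clusters, promoters could be placed for 4 of 14. Pbx2, a homeodomain partner of Hox proteins, Kmt2a, which methylates histones at active Hox genes, and the Polycomb genes Suz12 and Bmi1 were all at or under 0.370% in every library. The groups overlapped at each of these promoters, and the group means differed by at most 0.0721 points.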

How the data were processed

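DNA methylation was measured by ERRBS in 2 targeted and 3 wild-type LSK libraries; the targeted gene is not reported here. Per the labels' protocols, MspI fragments of 150 to 400 bp were bisulfite-converted and read as 50 bp single ends. Reads were aligned with Bismark (version not given in the sources used here) to the mm9 build (NCBIM37), as the submitters' processing notes give it. Per the file headers, the deposited tables give, for each CpG cytosine, its coverage in read counts and the percent read as C and as T. The deposited coverage counts are not normalized and start at 10; totals ran from 122015958 to 151634492 a library. Percent times coverage came within 0.01 of a whole number for 99.97% of entries or more, and these were rounded to methylated and unmethylated reads. Positions whose C and T percent sum under 90.0 are missing from the deposited tables.

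Both strands of a CpG were summed, CpGs in the top 0.1% of a library's coverage were dropped, and those covered in all 5 libraries on the autosomes were kept. A level is the unweighted mean of CpG percents, and a tile's level is its summed methylated reads over all its reads. Libraries were the replicates: group means were compared by exact permutation over all 10 splits, and clusters by exact sign flips within libraries. Tiles and CpGs were tested across the autosomes with edgeR 4.0.16 (quasi-likelihood test, a factor for each library) and, as an alternative, limma 3.58.1 (log2 ratios of methylated to unmethylated reads, each plus 1 read). The tile fit by edgeR was also run on simulated counts, in which all libraries had the same spread and targeted library 1 had no shift. The outcome of that run is not given here and carries no weight in the results. Reads carry no molecular identifiers and are not independent molecules, so read numbers show counting error only.

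No mm9 annotation was used. RefSeq (GRCm38.p6) gave names, gene order and promoter sequences, and no coordinate was converted. A promoter was placed where every covered CpG in its 300 bases fell on a CpG of the sequence, at least 5 did, and no other place in the window did as well. Named were the placed promoters, all methylated blocks, the longest unmethylated runs, the 3 tiles of each cluster with the largest difference and with the largest wild-type SD, and listed regulators. The members, lists and tests were chosen with earlier results of these data known. Some items were added after the values were seen. They are the placed transcripts other than the listed genes, the 1000 bases on either side of a start taken apart, and the HoxB tile next in difference. Alternatives were other coverage limits, weights, strand handling, tile sizes, minimum differences, left-out libraries and a replicate block.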

Additional observations from a re-analysis of the deposited data

How the results depend on the processing

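The directions of the cluster differences held under every alternative run, in which the split by CpG density given above was not included. Under any of these alternatives 0 tiles and 0 CpGs of the clusters were called. Leaving out each library in turn, the targeted excess ran from 1.78 to 4.65 points in HoxA and from 0.837 to 2.77 points in HoxB, HoxA minus HoxB from -4.04 to -3.43 points, HoxA minus the other CpGs from -18.6 to -17.5 points and HoxB minus the other CpGs from -14.5 to -13.9 points. With CpGs weighted by their reads the targeted excess was 5.26 points in HoxA and 3.75 points in HoxB (exact permutation p = 0.1 and 0.3), and with tile means it was 2.68 points in HoxA (exact permutation p = 0.2). The number of methylated blocks was 3 in HoxA and 8 in HoxB with at least 70% at each CpG, and 8 and 13 with at least 3 CpGs. Deviations of same-numbered libraries from their group means correlated at 0.00984 (number 1) and 0.0200 (number 2) over 148571 tiles, a larger set than the tiles tested. With 2 targeted libraries the deviations of that group mirror each other, so the values are not separate checks. Whether same-numbered libraries share a batch was not tested. With a replicate block (pairs 1 and 2) the excess was 2.91 points in HoxA and 1.78 points in HoxB, with 0 tiles and 0 CpGs called. Leaving out 1 targeted library leaves that group with 1 sample, assumed in the fits to vary like the other group. The number of libraries, and the CpGs that ERRBS does not reach, limit what these data can show; depth limits the tiles of few CpGs.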
